A study of Mus musculus with 12 samples.

Results

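The data described here are 4 RNA bisulfite sequencing (RNA BS-seq) libraries of total poly(A) mRNA, 2 labelled HF and 2 labelled MF, out of 12 libraries of neural stem cells (NSCs) in the series. The members were taken by their labels, and the deposited list of called cytosines of each library was the unit of comparison. All cells were wild type NSCs from the subventricular zone of adult male C57BL/6 mice of 6 to 8 weeks, kept as a proliferating culture and grown for 4 days with folic acid. By their labels, the medium held 80 µM folic acid for the libraries labelled HF (high folate), 10 µM for MF (mid folate) and 1.5 µM for the remaining total mRNA libraries, LF. Polysome values below are those of the polysome MF and polysome HF libraries, and the polysome LF libraries were not used. The study calls the 2 replicates of a condition biological, and the labels do not say whether they came from separate animals or cultures. The p-values of gene coverage below thus measure only the spread between these libraries. Those of single sites by Fisher's exact test rest on summed reads and hold no spread between libraries. The cytosine counts that the study lists for its HF sites are not those of the 2 libraries labelled HF, while its LF and MF counts are found in the LF and MF libraries. The libraries were therefore kept under the label they carry and are called the libraries labelled HF (or HF-labelled), without a claim about the dose their cells received.

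In RNA BS-seq, bisulfite deaminates cytosine, so that sequencing shows T, while 5-methylcytosine (m5C) still shows C. A position is thus described by its coverage and by its methylation level, the share of C among its C and T reads. Folate carries single carbon units for the synthesis of thymidylate, purines and methionine, and methionine gives S-adenosylmethionine, the methyl donor of RNA and DNA methyltransferases. NSCs divide, express Nestin, vimentin and Notch targets such as Hes1 and Hes5, and respond to a shortage of amino acids through the transcription factor ATF4, which induces enzymes and transporters for amino acids and aminoacyl-tRNA synthetases.

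The 4 lists held between 1799888 and 2071190 positions, with a summed coverage between 1910081647 and 2857966129 and a median gene coverage of 336.5 and 301 reads in HF-labelled and 424 and 474.5 in MF libraries. The cytosines and reference-T positions whose context was read all carried that base in the GRCm38 genome. Listed cytosines have 10 or more reads and 1 or more C reads, so positions without any C read are absent, and the coverage of weakly covered genes is an overestimate. At listed cytosines with a level under 0.05, C made up 0.187% and 0.193% of the reads in the HF-labelled libraries. In MF it was 0.144% and 0.139%, so the share of absent positions may differ between the groups. How far this reaches genes of middle coverage was not tested.

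The sequences that the site results turn on are shown first, each as 21 bases 5′ to 3′ with the measured position in the middle. In the first set the capitals mark the 4 bases before the position and the position itself, a cytosine that was read partly as C in the HF-labelled libraries and almost wholly as T in MF.
Hspd1 (chromosome 1, position 55079123, minus strand, exon 10, CDS): taggagGGGGCtgcgctctgc
Myh10 (chromosome 11, position 68814992, plus strand, exon 41, CDS): attgagGGGGCatcgctagag
St13 (chromosome 15, position 81383003, minus strand, exon 5, CDS): aagaagGGGGCtgccattgaa
In the second set the genome, and the capital at the same place, is a T that was read as C in the HF-labelled libraries and was listed in neither MF library.
Ybx1 (chromosome 4, position 119278222, minus strand): cagcatGGGGTttttattatt
Tsc22d1 (chromosome 14, position 76507655, plus strand): ccagtaGGGGTttctgcacct
Eef1b2 (chromosome 1, position 63178567, plus strand): gatgagGAGGTatgacttcat
The third set shows sites of the high-confidence list of the study that were higher in the HF-labelled libraries than in MF, with the cytosine in capitals and, in Cox6b2 and Thap12, the GGG at positions 2 to 4 after it.
Stmn3 (chromosome 2, position 181306567, minus strand, exon 5, 3'UTR): gctccttaggCaggagatatg
Cox6b2 (chromosome 7, position 4751948, minus strand, exon 3, CDS): gcagatcaagCaGGGaacttt
Thap12 (chromosome 7, position 98717700, plus strand, exon 5, 3'UTR): tagatcctgtCaGGGcagaag

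Gene programs were compared by gene coverage, the median coverage over the cytosines of a gene with a level under 0.05, with at least 10 such cytosines in each of the 4 files. Since a listed cytosine holds at least 1 C read, the level limit also sets a lowest coverage that can enter. A stricter level limit raises that lowest coverage. Values are given relative to the median gene of the library, which is 1. Of 9697 gene values compared, 484 were called with limma at an adjusted p under 0.05 and a log2 difference of at least 1 between the groups. Of these, 259 (2.67% of the genes compared) were higher and 225 (2.32%) were lower in the HF-labelled libraries, and 538 (5.55%) passed the adjusted p alone. The balance turned to 175 higher and 271 lower with summed-coverage scaling and to 361 and 554 with only cytosines listed in all 4 files, and 0 genes passed by limma without trend or with a replicate block. The smallest adjusted p was 0.0395, so each call sits close to the threshold, and 0 genes passed when any 1 of the 4 libraries was left out. In 60.2% of the genes, the libraries of the groups did not overlap. This held for all 484 called genes, so it adds nothing to a call. A log2 difference of at least 1 was found for 13.5% of the genes upwards and 11.9% downwards, around a median of 0.01. Libraries of 1 group differed by a median of 0.394 (log2) in the HF-labelled libraries and 0.233 in MF, against 0.576 between the group means. In bulk RNA, fewer cells of a type and less RNA per cell cannot be told apart, and this holds for each gene group below.

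**Figure D1:**
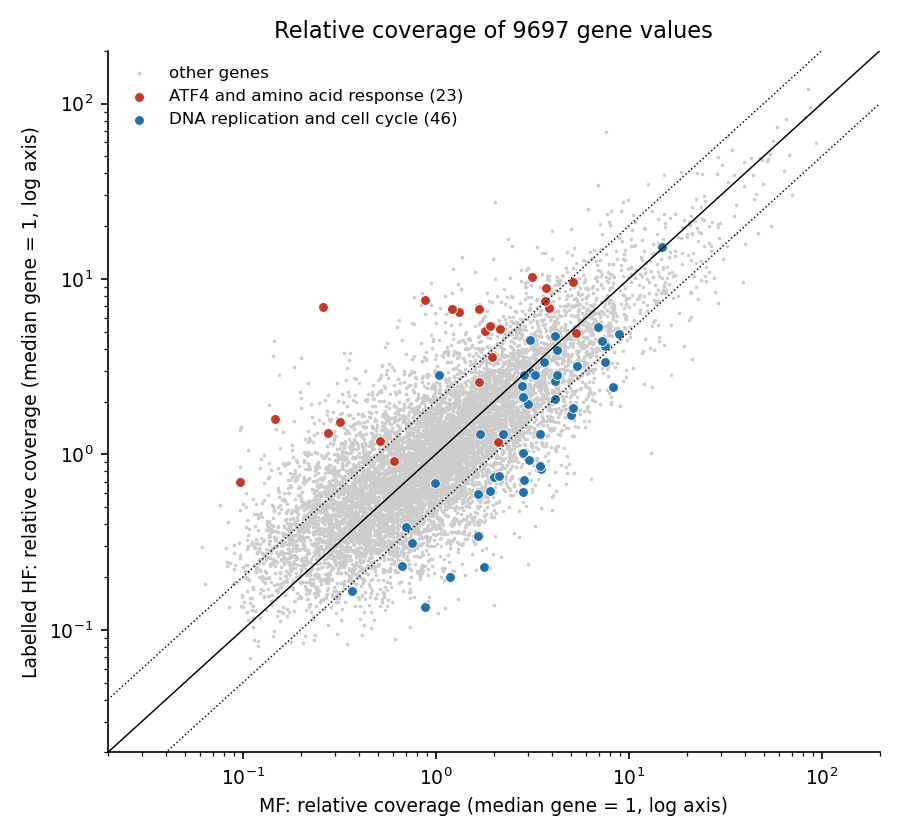
Relative coverage of each gene value in MF (x axis) and in the HF-labelled libraries (y axis), both as geometric means of 2 libraries on log axes, where 1 is the median gene. The solid line is equality and the dotted lines are a log2 difference of 1 in either direction. Most of the 23 coloured genes of the ATF4 list lie above equality and most of the 46 genes of DNA replication and cell cycle lie below it.

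The genes of the ATF4 and amino acid response were the list with the most members called higher. Of the 28 genes listed, 23 could be compared, and 13 rose in the HF-labelled libraries while 0 fell. Their median log2 difference was 1.48, against 0.01 for all genes, and 16 members passed a difference of 1 upwards and 0 downwards. This list and those below were chosen with earlier results of these data known, so their counts are a description. Summed over the list, relative coverage was 115 and 112 in the HF-labelled libraries, and 44.9 and 43.4 in MF. LF, with 43.5 and 44.6, lay near MF, and the polysome libraries lay above all of these, with 207 and 229 in polysome MF and 265 and 270 in polysome HF.

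Asparagine synthetase (Asns), the enzyme that makes asparagine from aspartate and glutamine, stood at 7.59 and 6.35 in the HF-labelled libraries and at 0.205 and 0.335 in MF. The groups were far apart, with a log2 difference of 4.73 (SE 0.331, adjusted p = 0.0395 by limma), which became 5.62 with the mean in place of the median of cytosines. Its levels were 0.137 and 0.408 in LF, 3.52 and 3.42 in polysome MF, and 4.87 and 10.1 in polysome HF. Ddit3 encodes CHOP, a stress transcription factor downstream of ATF4. Its relative coverage was 8.16 and 7.01 in the HF-labelled libraries against 0.673 and 1.16 in MF, a log2 difference of 3.10 (SE 0.324, adjusted p = 0.041 by limma). With the mean over cytosines this was 2.50. Both HF-labelled libraries were above both MF libraries for these 2 genes, as for every gene called higher.

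Of the transporters in the same list, 4 rose. Slc7a11, the cystine and glutamate exchanger, was at 0.556 and 0.872 in the HF-labelled libraries and at 0.0849 and 0.111 in MF (log2 difference 2.84, SE 0.393, adjusted p = 0.0446 by limma). Slc7a5, the large neutral amino acid transporter, was at 6.66 and 6.38 against 1.38 and 1.28, and its partner chain Slc3a2 was at 4.86 and 5.54 against 2.11 and 2.18. Like all called genes, neither had overlapping groups. The cationic amino acid transporter Slc7a1 rose by 2.26 (log2), with 1.38 and 1.70 against 0.341 and 0.301. Among the regulators, Atf5 (log2 difference 1.70), Cebpb (1.48) and Nupr1 (2.47) rose. Atf4 itself, at 6.75 and 6.83 against 3.26 and 4.62, did not pass (log2 difference 0.81, adjusted p = 0.105 by limma). Slc38a2, another amino acid transporter, had a negative difference of -0.83 that did not pass (adjusted p = 0.203). Of the enzymes of serine synthesis, Psph rose by 1.26 (log2), Phgdh had 0.89 with an adjusted p = 0.0483, under a log2 difference of 1, and Psat1 had -0.10 (adjusted p = 0.747).

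For 3 more members the MF lists held under 10 cytosines, so no difference was computed. Chac1, a glutathione-degrading enzyme induced by ATF4, had a median coverage of 1439 reads over 109 cytosines and 1051.5 over 92 in the HF-labelled libraries. MF held 0 cytosines of it in replicate 1 and 1 in replicate 2, with 22 reads. Trib3, a pseudokinase of the same response, had 817.5 and 406 reads in the HF-labelled libraries, and MF held 1 cytosine in replicate 1, with 29 reads, and 0 in replicate 2. Both genes were well covered in the polysome libraries, Chac1 with 767.5 to 1848 reads and Trib3 with 2034.5 to 4868.5. The third, Stc2, a secreted glycoprotein, had 168.5 and 458 reads against 49 and 35, with 5 and 3 cytosines in MF.

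**Figure D2:**
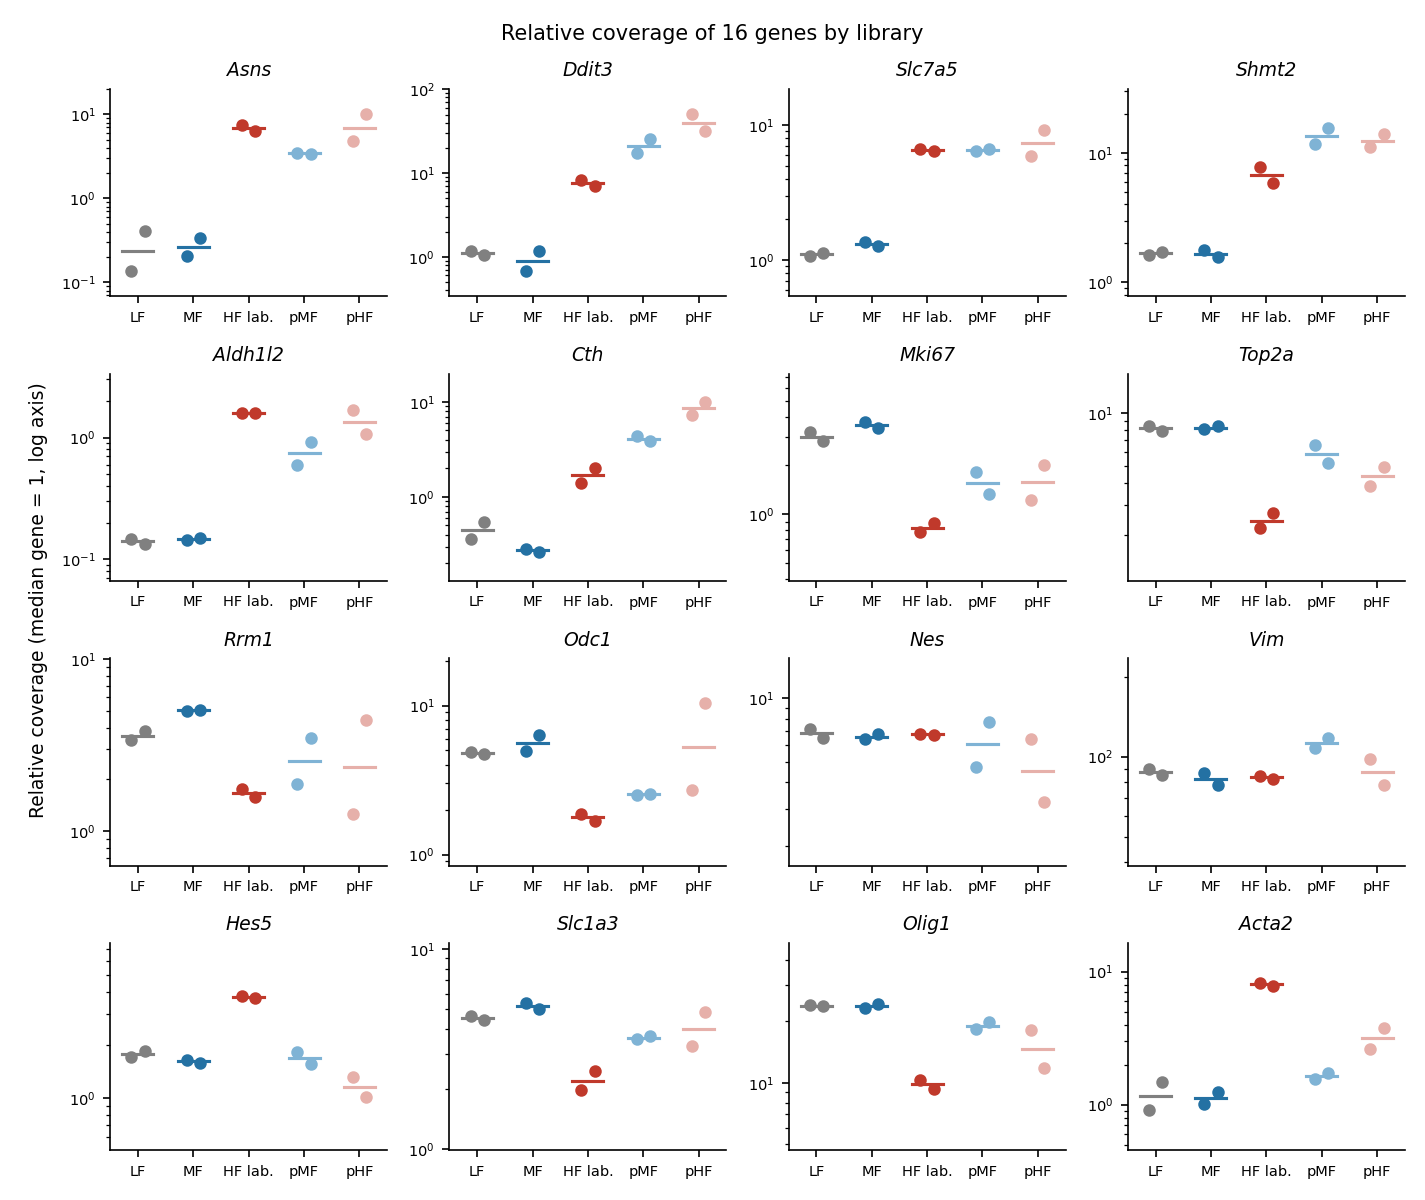
Relative coverage (log axis, median gene = 1) of 16 genes in LF, MF, the HF-labelled libraries (HF lab.), polysome MF (pMF) and polysome HF (pHF). Points are single libraries, 2 per group, and bars are geometric means. The libraries labelled HF lie above MF for Asns, Ddit3 and Acta2, below MF for Mki67, Top2a and Olig1, and next to MF for Nes and Vim.

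Mitochondrial folate enzymes were among the genes that rose. Aldh1l2, which oxidises formyl-tetrahydrofolate in mitochondria, was at 1.59 in both libraries labelled HF and at 0.144 and 0.150 in MF (log2 difference 3.44, SE 0.284, adjusted p = 0.0395 by limma). Shmt2, the mitochondrial enzyme that moves a carbon from serine to folate, was at 7.73 and 5.88 against 1.78 and 1.56, a difference of 2.02. Mthfd2, the next enzyme of that route, was at 5.58 and 4.56 against 1.99 and 1.63, a difference of 1.48. All 3 are also members of the ATF4 list. Of the 23 folate and thymidylate genes compared, 5 rose and 1 fell, with a median of 0.33. Another called member was Ggh, which trims folate polyglutamates. Ggh was at 1.33 in both libraries labelled HF and at 0.347 and 0.341 in MF, but its difference of 1.95 became 0.43 with the mean over cytosines, and LF stood at 1.27 and 1.23. Gcsh, a subunit of the glycine cleavage system, fell by 1.47 (log2). The cytosolic enzymes Mthfd1 (-0.85, adjusted p = 0.432) and Shmt1 (-0.28, adjusted p = 0.705) did not pass. Tyms, which makes thymidylate, had -0.62 (adjusted p = 0.122).

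Aminoacyl-tRNA synthetases, which load tRNAs with amino acids, had a median of 0.71, with 4 of 20 members called higher and 0 lower. Yars, for tyrosine, was at 9.95 and 9.15 in the HF-labelled libraries and at 2.92 and 2.88 in MF, a log2 difference of 1.72 (SE 0.130, adjusted p = 0.0395 by limma). Mars (1.68), Aars (1.22) and Sars (1.14) were the other members that rose. The list was not uniform. Kars, for lysine, had a log2 difference of -1.12 that did not pass (adjusted p = 0.0501), with 1.43 in both libraries labelled HF and 3.28 and 2.96 in MF. Endoplasmic reticulum chaperones, which belong to another branch of the stress response, had a median of -0.59 over 18 members, with 0 called higher and 1 lower. The called member, calreticulin (Calr), fell from 25.9 and 24.2 in MF to 8.88 and 10.8, and its difference of -1.35 became -0.33 with the mean over cytosines. Hspa5, the chaperone BiP, had -0.79 (adjusted p = 0.0600 by limma).

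Most genes of DNA replication and the cell cycle stood lower in the HF-labelled libraries, with 42 negative and 4 positive differences. Of 46 members, all compared, 12 fell and 0 rose, the median log2 difference was -0.95, and 23 members passed a difference of 1 downwards against 1 upwards. Mki67, which encodes the proliferation antigen Ki-67, was at 0.776 and 0.877 in the HF-labelled libraries and at 3.69 and 3.38 in MF (log2 difference -2.10, SE 0.197, adjusted p = 0.0395 by limma). Top2a, a topoisomerase of dividing cells, was at 2.20 and 2.68 against 8.15 and 8.43, a difference of -1.77. Like all called genes, neither had overlapping groups. LF was near MF for both, with 3.23 and 2.81 for Mki67 and 8.44 and 7.97 for Top2a.

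The called members covered replication and mitosis alike. The largest subunit of ribonucleotide reductase, Rrm1, was at 1.77 and 1.57 in the HF-labelled libraries and at 5.01 and 5.06 in MF, a difference of -1.60. Mcm4 and Mcm6 of the replicative helicase fell by 1.48 and 1.16 (log2), DNA ligase Lig1 by 1.48 and the helicase partner Gins2 by 1.41. Cdc6, a licensing factor, was at 0.184 and 0.219 against 1.21 and 1.16. Among mitotic genes, the kinesin Cenpe was at 0.624 and 0.601 in the HF-labelled libraries and at 2.94 and 2.75 in MF (log2 difference -2.21, SE 0.207, adjusted p = 0.0395 by limma). Nusap1, a spindle protein, had -2.71 and Ube2c, a ubiquitin-conjugating enzyme of mitotic exit, had -2.28. Sizes of the lower covered members depended on the cytosines used. With a level under 0.02 the differences were -1.14 for Nusap1, -1.72 for Cdc6 and -1.49 for Ube2c. That limit drops weakly covered cytosines, which by itself can shrink such differences. With the mean over cytosines Ube2c stood at -0.21 and Cdc6 at -1.68. Members without a change that passed included Mcm2 (-0.11, adjusted p = 0.655), Cdk1 (-0.19, adjusted p = 0.567) and Hmgb2 (0.04, adjusted p = 0.853).

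Among genes of methionine, transsulfuration and polyamine metabolism, 1 of 12 rose and 3 fell, with a median of -1.04. The gene that rose was Cth, cystathionine gamma-lyase, which makes cysteine, with 1.40 and 2.01 in the HF-labelled libraries and 0.285 and 0.261 in MF, a log2 difference of 2.62 (SE 0.322, adjusted p = 0.042 by limma). All 3 that fell make polyamines. They were Amd1 (-2.33), Odc1 (-1.66) and Srm (-1.49). Their sizes were not stable: with only cytosines listed in all 4 files Amd1 stood at -0.74, Odc1 at -0.13 and Srm at -2.16, and with the mean over cytosines Odc1 stood at 0.51, the opposite direction. Mat2a, which makes S-adenosylmethionine, was at 2.17 and 2.31 against 2.20 and 1.64 (0.23, adjusted p = 0.549).

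The label of NSCs was checked with a list of 23 markers, of which 20 could be compared. Nes (Nestin) was at 6.80 and 6.73 in the HF-labelled libraries and at 6.39 and 6.78 in MF, a log2 difference of 0.04, which was -0.68 with the mean over cytosines. Vim was at 84.5 and 82.7 against 86.7 and 77.9. The median over the list was 0.03, with 1 member called higher and 1 lower. Of the 20 members, 4 lay above a log2 difference of 1 and 3 below -1. Over all genes these shares were 13.5% and 11.9%, so the list did not stand far from them. Nes and Vim were present in all 4 libraries. Sox2 and Cspg4 were not analysed here. The other markers without a call in either direction included the cyclin Ccnd2 (0.02, adjusted p = 0.905), Sox3 (3.90 and 3.66 against 3.16 and 3.72) and Id3 (5.53 and 5.22 against 5.97 and 5.98). Sox1, counted with its overlapping transcript Sox1ot, had 5.20 and 3.63 against 4.37 and 3.83.

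The 2 called members went in opposite directions. Slc1a3, the glutamate transporter GLAST, fell from 5.38 and 5.002 in MF to 1.97 and 2.45 in the HF-labelled libraries (log2 difference -1.24, SE 0.183, adjusted p = 0.0473 by limma). Hes5, a Notch target, rose from 1.65 and 1.58 to 3.82 and 3.72 (log2 difference 1.22, SE 0.160, adjusted p = 0.043 by limma). Hes1 was at 12.6 in both libraries labelled HF and at 6.72 and 6.89 in MF, a difference of 0.89 with an adjusted p = 0.0416 that stays under a log2 difference of 1, and of 0.18 with the mean over cytosines. Over the Notch list, 3 of 18 members rose and 0 fell, with a median of 0.65. The other members that rose were Nrarp, a Notch target and feedback inhibitor (1.82, or 1.11 with the mean over cytosines), and the receptor Notch2 (1.02). Notch1 did not pass (0.15, adjusted p = 0.765).

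Other stem cell markers were not called. Fabp7, a lipid carrier of radial glia, was at 10.6 and 11.3 in the HF-labelled libraries against 20.1 and 33.7 in MF (-1.25, adjusted p = 0.0765 by limma). Olig2 was at 2.13 and 1.91 against 4.53 and 3.73 (-1.03, adjusted p = 0.0582). Msi1, an RNA-binding protein of progenitors, was at 3.82 and 2.17 against 0.453 and 0.681 (2.38, adjusted p = 0.0549). These 3 did not overlap between groups, which was also the case for 60.2% of all genes. Pax6 had 1.42 (adjusted p = 0.103), Sox9 -0.83 (adjusted p = 0.285) and Egfr -0.77 (adjusted p = 0.141). Cyclin D1 (Ccnd1) was at 8.13 and 8.71 against 16.1 and 14.3, a difference of -0.85 with an adjusted p = 0.0458, and of -0.20 with the mean over cytosines. Prom1 (-0.27, adjusted p = 0.692) and Nr2e1 (0.72, adjusted p = 0.318) did not pass either. With the mean over cytosines Egfr stood at -0.16, and with only cytosines listed in all 4 files Fabp7 stood at -2.16 and Sox9 at 0.20. The Y-linked genes Ddx3y, Eif2s3y and Kdm5d were listed in all 4 libraries, and 0 of them passed.

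Among the lists of other cell types, that of fibroblasts and mural cells had the most calls. Of 19 markers of fibroblasts and mural cells, 10 could be compared, 4 rose and 0 fell, with a median of 1.44. Their summed relative coverage was 63.6 and 55.5 in the HF-labelled libraries and 21.1 and 23.9 in MF. The smooth muscle actin Acta2 was at 8.23 and 7.79 against 1.01 and 1.24, a log2 difference of 2.84 (SE 0.182, adjusted p = 0.0395 by limma). With the mean over cytosines it was 3.84. Myl9, a smooth muscle myosin light chain, rose by 2.15, and Fbln5, an elastic fibre protein, rose by 2.40 (1.81 with the mean). The gene value that joins S100a4 with Gm42674 rose by 2.83. The fibroblast collagen Col1a2 was at 19.9 and 19.2 against 11.1 and 12.9 (0.71, adjusted p = 0.0552), Tagln had 0.64 (adjusted p = 0.241), and Thy1 had enough cytosines in the HF-labelled libraries only. Col3a1 (1.76, adjusted p = 0.0582 by limma), Pdgfrb (1.13, adjusted p = 0.0964), Pdgfra (0.08, adjusted p = 0.927) and Fbn1 (-0.33, adjusted p = 0.324) did not pass. Col1a1, Lum and Ogn had too few cytosines in the lists. Of 22 collagens, 15 could be compared and 2 rose, Col18a1 (1.66) and Col4a1 (1.21), both collagens of basement membranes, with 0 lower. The part of other cells in these differences was not tested.

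The other cell type lists were small in these lists of cytosines. Olig1, an oligodendrocyte lineage factor that neural progenitors also express, fell from 23.3 and 24.2 to 10.3 and 9.35 (log2 difference -1.27, SE 0.106, adjusted p = 0.0395 by limma), and it was the single call among 3 members compared. Neuronal markers gave 1 call of 9, Stmn3, a microtubule-destabilising protein, which rose by 2.69 (2.04 with the mean over cytosines). Of the 9, 5 had positive and 4 negative differences, with a median of 0.26. Stmn2 and 1 more neuronal marker had enough cytosines in the HF-labelled libraries only, and 1 in MF only. The list of axon growth and neuronal cytoskeleton had 2 members higher and 2 lower of 31, with a median of 0.31. Astrocyte markers gave 0 calls of 6 and microglial markers 0 of 2. The endothelial, ependymal, erythroid and muscle lists had 0 members with enough cytosines. The pluripotency factor Klf4, the 1 member of its list that was compared, was at 1.48 and 1.10 against 0.298 and 0.314, a difference of 2.06 (1.43 with the mean over cytosines).

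**Figure D3:**
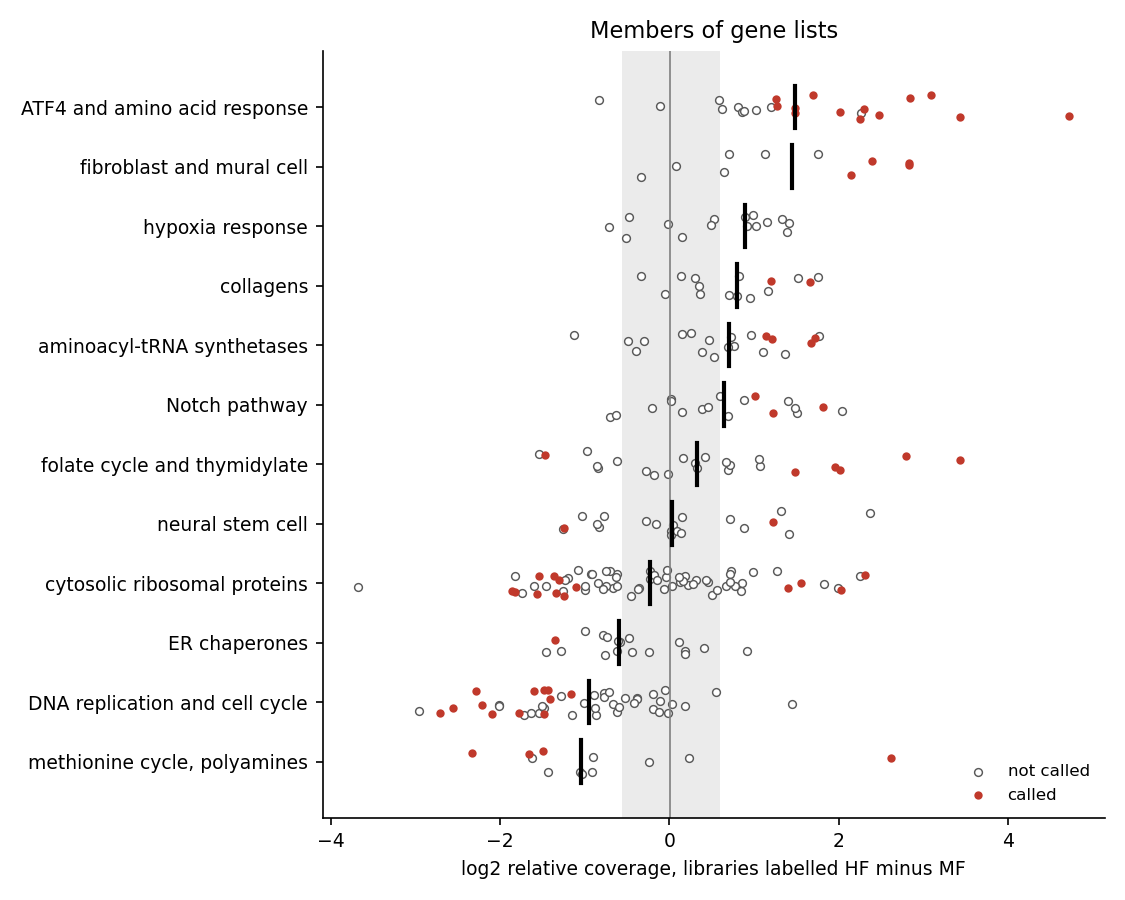
Log2 difference in relative coverage (libraries labelled HF minus MF) of the compared members of 12 lists. Filled points are called, open points are not, vertical bars are list medians, and the grey band spans the middle quartiles of all genes around their median line. The ATF4 list has its median at 1.48, DNA replication and cell cycle at -0.95.

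Ribosomal proteins and the nuclear-encoded respiratory chain had calls in both directions. Among cytosolic ribosomal proteins, 4 of 69 rose and 9 fell, with a median of -0.23. Rps21 was at 34.7 and 34.1 in the HF-labelled libraries and at 5.82 and 8.28 in MF (log2 difference 2.31, adjusted p = 0.0395 by limma), and Rps28 rose by 2.02. Rpl13 fell by 1.86 and Rpl7a by 1.82 (log2). Reads were aligned uniquely, and many ribosomal protein genes have near-identical processed copies, so these values are uncertain. Translation factors had 0 higher and 3 lower of 40 (Eif3k, Eif4g2 and Pabpc1), with a median of -0.23. Of these, Eif3k stood at -0.61 with only cytosines listed in all 4 files, and with the mean over cytosines Eif4g2 stood at 0.05 and Pabpc1 at -0.46. The nuclear-encoded respiratory chain had 4 higher and 7 lower of 68, also with a median of -0.23, and the largest called differences were those of Ndufa1 (3.31) and Ndufs4 (-2.05). Of 4 genes of chromosome MT compared, 2 fell and 0 rose. The ribosomal RNA mt-Rnr2 was at 0.175 and 0.110 against 2.17 and 1.84 (log2 difference -3.85, SE 0.375, adjusted p = 0.0402 by limma), and mt-Nd6 fell by 1.60. For mt-Rnr2 the HF-labelled medians were 59 and 33 reads, near the lowest coverage that can enter, so the size is uncertain. LF stood at 0.762 and 0.956, between the groups. With a level under 0.02, which raises that lowest coverage, mt-Rnr2 stood at -3.22. mt-Co1 (-0.33, adjusted p = 0.154) and mt-Cytb (-0.17, adjusted p = 0.525) did not pass. For mt-Nd1, mt-Nd2, mt-Nd5 and mt-Rnr1 the HF-labelled libraries held 0 cytosines with a level under 0.05, so their coverage could not be compared by this measure.

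The 12 largest called differences in each direction were taken by size, whether or not the gene was on a list, leaving out clone names and pseudogenes. Sbspon, a secreted protein, was at 4.78 and 4.05 in the HF-labelled libraries and at 0.175 and 0.120 in MF (log2 difference 4.93, SE 0.323, adjusted p = 0.0395 by limma). Socs3, an inhibitor of cytokine signalling, was at 3.83 and 3.46 against 0.123 and 0.169, but LF stood at 0.557 and 1.14, and its difference of 4.66 became 3.08 with a level under 0.02. Tcf7l2, a transcription factor of the Wnt pathway, was at 8.32 and 7.58 against 0.531 and 1.11, a difference of 3.37 that became 1.59 with only cytosines listed in all 4 files. Beside these and Asns, the largest rises were those of Lrrc4, Zfp1, Cfl1, Aldh1l2, Scp2, Tmem147, Ndufa1 and Zfp422, with log2 differences between 3.29 and 4.09. Cfl1 (cofilin) rested on unequal libraries, 44.8 and 17.0 against 2.02 and 2.05, and its difference of 3.76 became 0.20 with the mean over cytosines. The largest falls after mt-Rnr2 were those of Ammecr1, Snx2, Gpcpd1, Tmem70, Ipo7, Lypla1, Noct, Thyn1, Hcfc2, Psmd14 and Smc2, between -3.12 and -2.76. Thyn1 was at 0.562 and 0.578 in the HF-labelled libraries and at 4.47 and 3.56 in MF. Smc2, a condensin subunit, was at 0.487 and 0.781 against 4.39 and 3.99. Of these 24 genes, 18 moved by over 1.5 times with the mean over cytosines and 0 changed direction. With a level under 0.02, 21 had a value, 11 moved and Tmem70 alone changed direction (0.49). With only cytosines listed in all 4 files, 8 had a value, 7 of these moved and 0 changed direction. The sizes are thus less certain than the directions, and the directions of genes without a value were not checked in these settings.

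Some genes had enough cytosines in 1 group only. There were 130 with at least 10 in both libraries labelled HF and under 10 in both MF libraries, and 335 the other way, with no test. With all libraries thinned to the same summed coverage the numbers were 207 and 210. By coverage, the first 8 in the HF-labelled libraries were Chac1, Scg5, a second Ddit3 value (positions that the files assign to 2 overlapping entries of that name), Bcat1, Trib3, Stmn2, G0s2 and Slc6a9. Bcat1, which transaminates branched amino acids, had 613 and 660 reads in the HF-labelled libraries and 68 and 63 in MF. The glycine transporter Slc6a9 had 602 and 490 against 26 and 24. In MF the first 8 were Pfdn4, Ciao2b, Rnf24 with Snrpert, Fcf1, Sntg1, Rbm7, Zfp945 and Ptrhd1. Pfdn4, a prefoldin subunit, had 2876.5 and 2801 reads in MF and still 832 and 545 in the HF-labelled libraries, over 9 and 8 cytosines.

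Base composition moved with gene coverage. With the genes divided into 3 equal groups by GC content, the median log2 difference was -0.27 in the group of lowest GC, -0.03 in the middle and 0.25 in the highest, and 54, 58 and 113 genes were called higher against 102, 65 and 36 lower. After subtraction of the median of its GC group from each gene, a step added after the data were seen, the list medians were 1.30 for ATF4, -0.93 for DNA replication and cell cycle, 0.88 for aminoacyl-tRNA synthetases and 0.88 for the 9 fibroblast and mural markers with a GC value. The part of base composition in single genes was not tested. Signs of RNA quality were also read: the coverage of the first over the last part of long transcripts was 1.54 and 1.45 in the HF-labelled libraries and 1.44 and 1.48 in MF, and introns held 0.214% and 0.221% of the coverage against 0.207% and 0.203%. Of the listed cytosines, 1.54% and 1.57% were intronic against 2.11% and 2.02%, and neither intronic share overlapped between groups. Their part in the gene differences was not tested.

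For methylation, 316052 cytosines were covered by 20 or more reads in each of the 4 libraries. Sites were compared where both libraries of a group passed the standard filter of the study, a level of at least 0.1 with at least 6 C reads. The study also treats reads with many unconverted cytosines as incompletely converted and drops them. That filter, and its filters for signal over noise and for conversion-resistant regions, were not applied here. This left 1138 sites, 1011 called in both libraries labelled HF, 419 in both MF libraries and 292 in all 4. With Fisher's exact test, after summing the reads of both replicates, 943 sites (82.9%) were higher in the HF-labelled libraries and 130 (11.4%) were lower at an adjusted p under 0.05. A site had to be called in 1 group to enter, so a high share of differences is built into this selection. More sites entered through the HF-labelled libraries than through MF, so the excess of higher sites is in part built in too. This holds for each class below. With no minimum level, 31271 of the 316052 cytosines were higher and 1481 were lower. Tests that allow for variation between replicates gave similar counts, 1057 by a beta-binomial test and 1034 by limma on the log odds, and 1068 of the 1073 sites had groups that did not overlap. The median gap between replicates was 3.89 percentage points in the HF-labelled libraries and 1.18 in MF, against 21.0 between group means. These sites fell into distinct classes, described in turn.

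**Figure D4:**
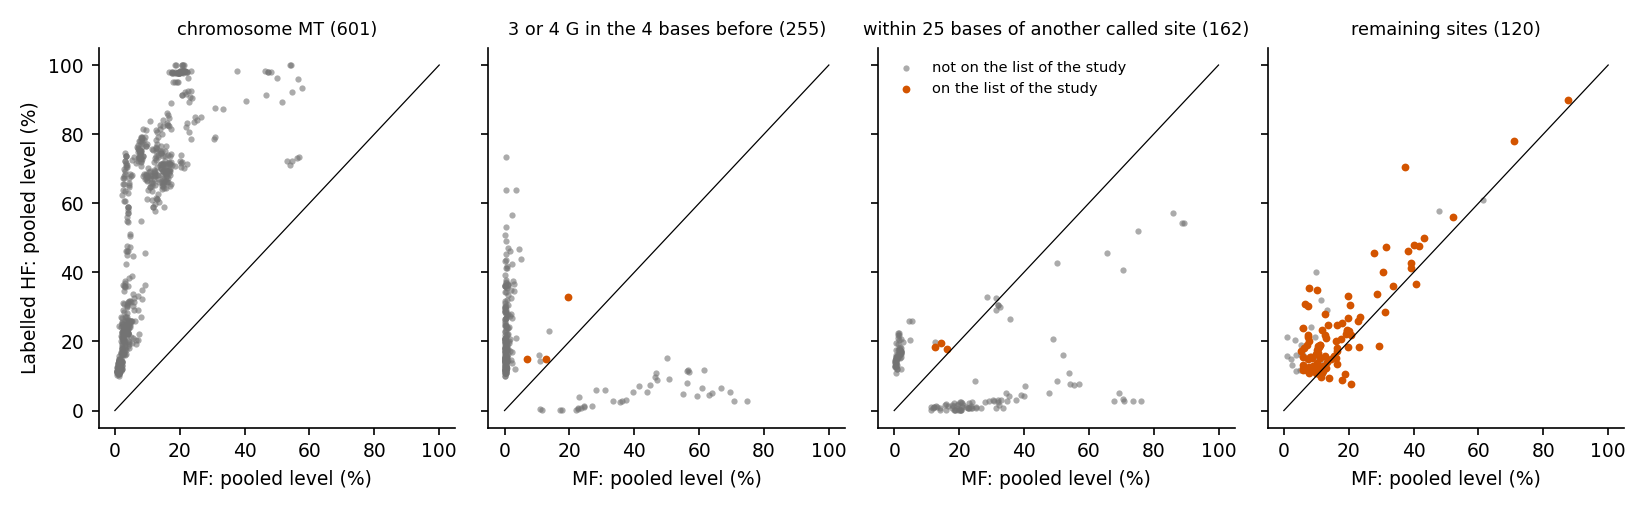
Pooled methylation level (% of reads) of the 1138 sites in MF (x axis) and in the HF-labelled libraries (y axis), in 4 classes, with orange points for sites on the list of the study and a line of equality. Sites of chromosome MT lie above the line, sites after G-rich stretches hug the y axis or lie low on the right, and most sites on the list of the study lie around or somewhat above it.

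The second largest class was cytosines with 3 or 4 G among the 4 bases before them, a definition chosen after the values were seen and hence described without a test of the class. It held 255 sites in 213 genes, 209 higher and 41 lower in the HF-labelled libraries. Their median level was 17.2% and 16.7% against 0.5% and 0.436% in MF. In exons, 156 lay in a CDS, 76 in a 3'UTR and 4 in a 5'UTR. Introns held 3.53% of the class and 2.90% of all sites compared.

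Of the 8 sites named for the size of their rise (1 per gene, with at least 50 reads in each library), 6 came from this class, and 3 of them are the first set of sequences above. All of these entered through their level in the HF-labelled libraries and were named for the size of their rise, so their values are a description. Another lay in the gene value that joins Cdk5rap2 with Ywhaq-ps3. The Hspd1 site, in the mitochondrial chaperonin HSP60, had 64.6% of 946 reads and 62.6% of 635, against 0.230% of 1304 and 0.602% of 1333. In LF replicate 2 the same cytosine had 0.192% of 1041 reads, and LF replicate 1 did not list it. In Myh10, a nonmuscle myosin, the levels were 54.0% of 533 and 51.9% of 374 reads against 0.493% of 203 and 0.346% of 289, a pooled difference of 52.7 percentage points. St13, a cochaperone of HSP70, had 55.9% and 45.1% against 0.0733% and 0.132%, with 588 to 1512 reads in each library. Its levels in LF, polysome MF and polysome HF were all at or under 0.358%. High levels at these 3 cytosines were thus found in the 2 libraries labelled HF and in neither MF library, which says nothing of the other sites of the class.

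Over all listed cytosines, the share of C reads was set beside the number of G among the 4 preceding bases. With 0 G, C made up 0.201% and 0.207% of the reads in the HF-labelled libraries and 0.183% and 0.177% in MF. With 2 G it was lower in all 4 libraries, 0.175% and 0.181% against 0.141% and 0.136%. With 3 G the shares were 0.348% and 0.353% against 0.153% and 0.147%. With 4 G they were 2.50% and 2.37% against 0.234% and 0.216%. The gap between the groups thus widened at 3 and 4 G, while LF, with 0.223% and 0.226% at 4 G, lay with MF. In the HF-labelled libraries, 60.5% and 59.9% of all called sites of the library followed such a stretch. The shares in MF were 4.59% and 4.87%. Coverage at cytosines after 4 G, relative to the gene, was 0.528 and 0.522 in the HF-labelled libraries and 0.612 and 0.629 in MF.

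The same pattern was found where no cytosine exists. The lists also hold positions whose reference base is T and where some reads carry C. There were 13.8 and 12.2 of these per 1000 listed cytosines in the HF-labelled libraries and 3.26 and 3.94 in MF. Polysome HF replicate 2 had more, 23.3, of which 5.69% followed 3 or 4 G. Of those in total mRNA, 61.1% and 63.8% followed 3 or 4 G in the HF-labelled libraries, against 4.61% and 4.63% in MF. C reads at these positions reached at least 10% in 2737 and 2264 cases in the HF-labelled libraries and in 0 and 0 in MF. The median share was 2.04% and 2.10%, against 0.0358% and 0.0297%. The 2 libraries labelled HF shared 8771 of the positions, 54.0% of those in replicate 1 and 66.7% of those in replicate 2, and across the shared positions their C shares had r = 0.927, a correlation across positions of 2 libraries that share genes and sequence. In the second set of sequences above, the Ybx1 position had 98.0% C of 149 reads and 92.3% of 130. Tsc22d1 had 89.3% of 159 and 90.6% of 117, and Eef1b2 had 80.6% of 319 and 89.4% of 265. C at a reference T is not a bisulfite measurement of m5C, so at cytosines after the same stretches the C reads of these libraries cannot be told apart from this signal by the lists alone.

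**Figure D5:**
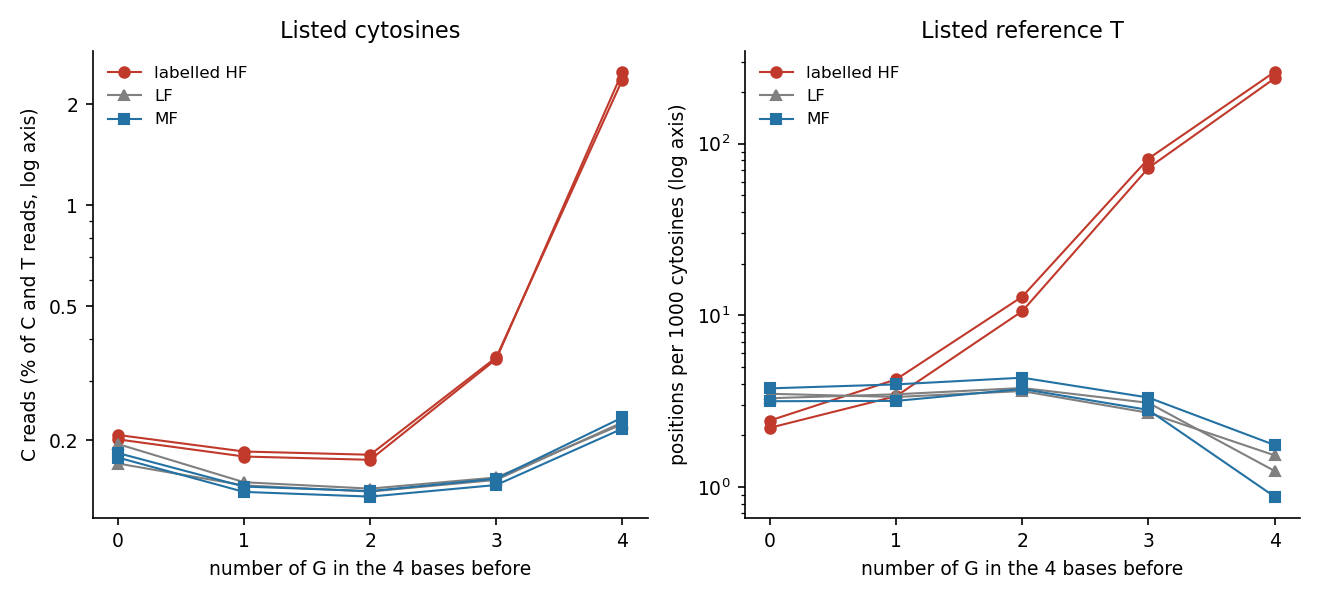
Share of C reads at listed cytosines (left, % on a log axis) and number of listed reference-T positions with C reads per 1000 listed cytosines (right, log axis), by the number of G among the 4 preceding bases, for 6 total mRNA libraries (each line is 1 library). The HF-labelled lines rise at 3 and 4 G on the left and with each further G on the right, while MF and LF do not rise alike.

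Chromosome MT was the largest class, with 601 sites, 596 of them higher and 0 lower in the HF-labelled libraries. The median level was 67.6% and 53.3% in the HF-labelled libraries and 5.46% and 7.36% in MF. Both MF medians lie under the lowest level that the standard filter lets pass. Most of these sites thus entered through their level in the HF-labelled libraries alone. The count of higher sites and the gap between the medians are therefore in part built in, and are a description. The sites lay in long runs, 599 of 601 within 25 bases of another called site, so they are not independent of each other. The part of incomplete conversion in their C reads was not tested. By gene, mt-Nd1 held 150 sites, mt-Cytb 143, mt-Nd4 106, mt-Co1 99 and mt-Nd2 78. The site at position 14713, in mt-Cytb, had 67.6% of 74 reads and 68.0% of 50 against 7.25% of 276 and 10.7% of 225. In mt-Co1, position 6593 had 87.3% of 55 and 62.7% of 59 against 13.3% of 173 and 14.9% of 168. Called sites on this chromosome were not particular to the HF-labelled libraries. Counted per library, they numbered 836 and 720 there, 623 and 691 in MF, and 699 and 756 in LF. Levels over 50% were found at 540 and 354 of them in the HF-labelled libraries, at 9 and 74 in MF, and at 46 and 172 in LF. Over all listed cytosines of the chromosome, C reads made up 1.45% and 1.41% in the HF-labelled libraries and 0.512% and 0.519% in MF. In LF they made up 0.714% and 0.643%. The median coverage of its called sites was lower in the HF-labelled libraries, 36 and 43 reads against 70 and 64.

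Sites within 25 bases of another called site, outside chromosome MT and G-rich stretches, were split. Of 162, 84 were lower and 68 higher in the HF-labelled libraries, with medians of 12.5% and 11.5% against 15.1% and 15.6%. Here too, the part of incomplete conversion was not tested. Among those with large falls were 2 cytosines in GC-rich repeats of 5'UTRs. The Ank site, on chromosome 15 at position 27466730, had 0.532% of 188 reads and 1.23% of 162 in the HF-labelled libraries and 25.4% of 63 and 38.0% of 121 in MF. Their sequences repeat a triplet, with the cytosine in capitals.
Ank: ccgccgccgcCgccgccgccg
Eif4ebp2: gccgccgccgCcgccgccgcc
The Eif4ebp2 site, in the 5'UTR of a translation repressor, had 3.07% of 4588 and 3.02% of 3307 reads against 33.8% of 784 and 32.2% of 1167. LF was with MF at both sites, with 24.7% and 22.4% for Ank and 27.4% and 32.1% for Eif4ebp2. The remaining large falls, in Rgp1, Mad2l2, Samd1, Cavin1, Cmss1 and Ube2r2, were also next to another called site, and 4 of them followed a G-rich stretch. Cmss1, in an intron, had 1.82% of 549 and 3.87% of 698 reads against 39.5% of 930 and 35.7% of 1157.

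Outside chromosome MT, G-rich stretches and clusters, GGG at positions 2 to 4 after the cytosine, a pattern of the sites on the list of the study, was present at 36 sites, 27 of them higher and 1 lower, with medians of 22.7% and 16.9% in the HF-labelled libraries and 10.9% and 10.5% in MF. Over all sites compared, 82.9% were higher and 11.4% lower. The motif CTCCA, starting at the cytosine, was present at 6, with 4 higher and 0 lower. Of the positions on the high-confidence list of the study, 102 were compared, and 96 of these lay outside chromosome MT, G-rich stretches and clusters. Among the 96, 51 were higher, 5 lower and 40 did not pass. The medians of the 96 were 20.1% and 18.5% in the HF-labelled libraries and 12.6% and 13.2% in MF. Outside that list, 24 further sites remained, 19 higher and 0 lower.

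The sites named here from that list were chosen after their values were seen, so they are given without a test. The Stmn3 site, in a gene whose coverage rose too, had 34.8% of 187 and 36.4% of 162 reads in the HF-labelled libraries and 10.3% of 126 and 5.26% of 133 in MF. Levels in LF were 9.35% and 6.48%, but those in polysome mRNA were 21.7% and 31.1% for MF and 20.0% and 30.9% for HF. The Cox6b2 site, in a subunit of cytochrome c oxidase, had 32.2% and 29.5% against 1.41% and 11.2%. Thap12 had 21.9% and 20.5% against 6.31% and 8.33%, and its polysome levels lay between 15.3% and 16.3%. Col4a6 had 27.0% and 20.7% against 5.65% and 5.96%, while LF had 21.2% and 14.1% and polysome levels lay between 24.4% and 37.8%. Thbs3, the site with CTCCA, had 27.0% of 374 and 23.1% of 463 against 13.4% of 870 and 13.6% of 882, while polysome levels lay higher, between 38.7% and 47.2%. At Wdr48 the order was reversed, with 10.3% and 10.8% in the HF-labelled libraries and 18.4% and 19.4% in MF. LF had 33.1% and 30.4% there, and polysome levels lay between 34.2% and 42.5%. Each of these 6 sites had groups that did not overlap, which the choice by values favours. Of the 102 positions compared on the list, 53 passed the threshold with groups that did not overlap.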

How the data were processed

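RNA BS-seq was done by the authors with a bisulfite kit for RNA and stranded libraries, sequenced as paired reads. After trimming (fastp), the authors made unique alignments to mm10 (GRCm38) by meRanGh, then used meRanCall for cytosines and meRanAnnotate for genes. The deposited methylation level is the fraction of C among C and T reads, as the authors' caller wrote it. The deposited coverage and C reads are counts per cytosine, not normalized between libraries, and precede the authors' later filters. Summed coverage ranged from 1910081647 to 2857966129 in the 4 libraries. The submitters' notes name R 4.1.1.

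Gene coverage (log2, median-centred, filter of at least 10 cytosines) was tested with limma 3.58.1 in R 4.3.3 (trend, Benjamini-Hochberg over all genes), since a median is not a read count, with edgeR 4.0.16 as an alternative. Sites were tested with Fisher's exact test on pooled reads. Python 3.11.15, numpy 2.4.6, pandas 2.3.3 and scipy 1.17.1 were used, and scripts were tested on simulated data. The annotation was GENCODE vM21. Members, lists and tests were chosen with earlier results of these data known. Named were the 12 called genes and 8 sites (1 per gene) with the largest difference per direction, with a coverage of at least 50 and groups that did not overlap, without clone names and pseudogenes, up to 4 called members per list, all stem cell markers, and 8 genes per group listed in 1 group only. Other list members were named after their values were seen. Replicates shared a number without pairing (r of same-numbered deviations -0.03). Some named members are not reported here.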

Additional observations from a re-analysis of the deposited data

Results flagged for a closer look

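Positions whose reference base is T lie outside the cytosines that were compared, and were counted because the lists hold them. With 3 or 4 G among the 4 bases before, there were 16251 of them in replicate 1 and 13148 in replicate 2 of the libraries labelled HF, above the 268 and 354 in MF and the 264 and 327 in LF. The 4 polysome libraries described here held between 194 and 971. The number was not tested beyond this comparison, and its cause was not tested.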

How the results depend on the processing

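Among called genes named by rule, the direction turned for Tmem70 (0.49 with a level under 0.02), Tubb2a (0.13 with cytosines listed in all 4 files), Odc1 (0.51) and Eif4g2 (0.0539), both with the mean over cytosines. Counting also the named genes that were not called, at most 7 of 99 changed sign under any alternative, among them small differences. Of 162 alternative values of the named sites, 159 kept their sign and 0 were reversed. The number of called genes was 915 of 3540 with cytosines listed in all 4 files, 890 with a level under 0.02, 1737 with the mean, 1034 with LF in the fit and 0 for limma without trend (2808 at an unadjusted p under 0.05), and leaving out 1 library gave 0 each time (1503 to 3572 unadjusted). edgeR called 412. With the replicate number as a block it was 0 (2326 unadjusted), while sites with the replicate block stayed at 1073. The share of calls that were higher was 53.5%, but 39.2% with summed-coverage scaling, which moved the median of all genes to -0.18, and 39.5% with cytosines listed in all 4 files. List members called numbered 147 with these cytosines and 0 without any 1 library. Sites past the threshold numbered 629 and 464 at coverage 50 and 100, 626 at level 0.2, 32752 with no minimum level, 474 without chromosome MT, 274 without clusters, 51 on the list of the study and 68 without chromosome MT, G-rich stretches and clusters, the last chosen after seeing the data. Genes listed only in the libraries labelled HF numbered 20 with at least 30 cytosines, 207 after thinning and 176 to 344 without 1 library, and those only in MF 41, 210 and 461 to 644.

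Differences between library means moved as follows. Unconverted reads differed by 0.0395 percentage points after thinning, and called sites by 1861.5 at coverage 50. The share within 25 bases of another site differed by -66.6, -57.7 and -73.2 percentage points after thinning and at coverage 10 and 50. The share on chromosome MT differed by -5.50 and -18.6 at coverage 10 and 50, the share with GGG at positions 2 to 4 by -1.03 and -0.23 after thinning and at coverage 10, and the share after G-rich stretches by 56.9, 49.1 and 65.3 in the same 3 settings as the first. Only 2 libraries per group limit each p-value, and weakly covered genes rest on few listed cytosines. The cause of each change was not tested.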

Other observations

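Several further lists had values that the comparisons above do not use. Of the receptor tyrosine kinase and growth factor genes, 4 of 22 rose and 0 fell, with a median of 0.09. The members that rose were Fgfr3 (3.74 and 3.78 in the libraries labelled HF against 1.06 and 1.25 in MF), Pdgfb, and the insulin-like growth factor binding proteins Igfbp4 and Igfbp2. Matrix glycoproteins and proteoglycans had 2 higher and 1 lower of 26, with Sparc falling by 1.17 (log2) and Thbs1 and Fbln5 rising (Thbs1 by 1.28, or 2.40 with only cytosines listed in all 4 files). The hypoxia list had a median of 0.89 over 15 members with 0 calls. Its member Adm, a vasoactive peptide, had 1.42 (adjusted p = 0.0829 by limma). Neurogenic transcription factors, which drive progenitors to become neurons, had a median of 0.82 over 8 members with 0 calls.

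Of the RNA m5C writers, erasers and readers, 1 of 12 rose. This was Srsf2, at 9.78 and 10.7 against 4.26 and 4.25, but its difference of 1.26 became 0.01 with only cytosines listed in all 4 files. Nsun2, the main m5C writer of mRNA, was at 3.46 and 2.98 against 3.88 and 3.26 (-0.15, adjusted p = 0.643 by limma). DNA methylation enzymes had 0 calls of 11. The interferon list (median 0.62 over 12 members), glycolysis (-0.16 over 16) and cholesterol synthesis (-0.06 over 22) had 0 calls each.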
